A study of Mus musculus with 32 samples.

Results

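The genes described here are Acod1 and 8 genes of citric acid cycle enzymes (Cs, Idh3a, Idh1, Idh2, Ogdh, Suclg1, Fh1 and Mdh2), which were taken by name from a table of 18588 genes of microglia. All 9 were found in it. Microglia had been isolated with CD11b beads from the forebrains of female mice at 2, 4, 6 and 8 months of age, and each RNA sequencing library came from the pooled tissue of 8 to 10 animals. rTg4510 mice carried both a human tau transgene with the P301L mutation, under a tetracycline-responsive element, and a transactivator transgene under the CaMKIIα promoter, which restricts tau to forebrain neurons, so the transgene was not directed to microglia. The controls (WT, strain label 129/FVB F1) were littermates with neither transgene, and no group received another treatment. Of 4 libraries per genotype and age, 28 of 32 in all were kept. WT and rTg4510 replicate 3 at 4 months and replicate 4 at 8 months were left out because the study excluded them after quality control, so each group of 4 or 8 months holds 3 libraries and each group of 2 or 6 months holds 4.

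In the citric acid cycle, the acetyl group of acetyl-CoA is joined to oxaloacetate to give citrate, which is oxidised step by step back to oxaloacetate, and the electrons released feed the respiratory chain. Macrophages that meet bacterial products are known to rewire this cycle: citrate leaves it for lipid synthesis, succinate builds up, and aconitate is decarboxylated to itaconate by the enzyme that Acod1 (also called Irg1) encodes. Itaconate inhibits succinate dehydrogenase and is known to activate the transcription factor that Nfe2l2 encodes. Microglia are the macrophages of the brain parenchyma. The comparison asks how the transcripts of these enzymes differed between microglia of tau transgenic and WT mice at each age.

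The promoters of 4 genes are shown, because these carry the contrast in the results: Cs and Mdh2, which were higher in rTg4510 microglia, Idh2, which was lower, and Acod1, for which no difference was detected. Each window runs from 250 bases before to 50 bases after a RefSeq transcription start site of GRCm38.p6, on the strand of the gene. Capitals mark matches, on either strand, to 10 motifs: the GC box (GGGCGG), the CCAAT box (CCAAT), the TATA box (TATAAA), the E-box (CACGTG), the cAMP response element (TGACGTCA), the NRF1 core (GCGCANGCG), an ERR half-site (AAGGTCA), an ETS core (CCGGAAG), a κB-like site (GGAANTTCC) and an AP-1 site (TGANTCA). The windows are chr10:128337477-128337776 (+) for Cs, chr5:135778399-135778698 (+) for Mdh2, chr7:80115301-80115600 (-) for Idh2 and chr14:103046762-103047061 (+) for Acod1. The start site of the Idh2 window lies inside the annotated gene.
Cs: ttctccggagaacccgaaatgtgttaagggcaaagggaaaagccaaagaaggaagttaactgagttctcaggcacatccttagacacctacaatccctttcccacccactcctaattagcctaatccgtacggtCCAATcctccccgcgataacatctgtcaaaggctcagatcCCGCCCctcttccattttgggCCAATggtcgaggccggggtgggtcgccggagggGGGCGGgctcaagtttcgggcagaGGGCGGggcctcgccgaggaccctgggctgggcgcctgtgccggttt
Mdh2: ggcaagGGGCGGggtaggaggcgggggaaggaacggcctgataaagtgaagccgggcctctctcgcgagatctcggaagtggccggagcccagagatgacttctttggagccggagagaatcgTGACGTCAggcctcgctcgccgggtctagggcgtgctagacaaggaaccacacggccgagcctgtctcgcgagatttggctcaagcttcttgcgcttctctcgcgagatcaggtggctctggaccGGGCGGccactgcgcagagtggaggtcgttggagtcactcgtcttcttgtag
Idh2: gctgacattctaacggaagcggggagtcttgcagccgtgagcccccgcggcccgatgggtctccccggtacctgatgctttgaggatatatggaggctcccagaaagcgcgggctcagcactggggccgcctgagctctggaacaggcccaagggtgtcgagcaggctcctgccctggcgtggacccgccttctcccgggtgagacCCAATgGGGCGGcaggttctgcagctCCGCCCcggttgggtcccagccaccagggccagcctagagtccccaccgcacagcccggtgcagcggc
Acod1: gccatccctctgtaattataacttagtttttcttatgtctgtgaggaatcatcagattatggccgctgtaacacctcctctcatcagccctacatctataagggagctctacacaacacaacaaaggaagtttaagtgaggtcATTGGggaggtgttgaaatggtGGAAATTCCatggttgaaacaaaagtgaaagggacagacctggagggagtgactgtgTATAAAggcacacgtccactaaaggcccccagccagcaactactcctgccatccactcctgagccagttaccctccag

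The promoters of the 3 enzymes held more CpG than the median window, with 18 in Cs, 27 in Mdh2 and 20 in Idh2. The median was 7 over 32851 RefSeq windows of the same length, and 70.3%, 84.5% and 73.5% of windows held fewer than these 3. The promoter of Acod1 held 2, and 14.1% of windows held fewer. GC boxes, which 35.7% of all windows hold, occurred 3 times in Cs, 2 times in Mdh2 and 2 times in Idh2. Cs also held 2 CCAAT boxes and Idh2 held 1, as do 37.4% of all windows. Mdh2 held a cAMP response element starting at -127 (1.79% of windows). Acod1 had no GC box. It held a TATA box at -28 (13.6% of windows), a κB-like site at -85 (0.928% of windows) and a CCAAT box on the other strand at -107. Among the printed windows none of the other motifs was found (E-box in 7.15% of all windows, NRF1 core in 6.25%, ERR half-site in 4.72%, ETS core in 8.86%, AP-1 site in 7.81%). Such matches describe the letters and are not evidence of binding. The table held windows for 8 of the 9 genes.

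The unit throughout is the deposited log2 gene signal, in which a difference of 1 is a doubling. It carries no correction for gene length, so levels are compared between libraries and not between genes. A gene was called up- or down-regulated when limma's linear model gave a false discovery rate (FDR, Benjamini-Hochberg over all 18588 genes of one comparison) under 0.05, and a DEG when it also changed more than 1.5 fold. Fold changes below are on the log2 scale and positive where rTg4510 was higher, and SE is their standard error. The precision was taken from the spread between libraries, since log2 signals carry no read counts. Whether the libraries of the genotypes overlapped is given as a description, and no call rests on it. The share of all genes without overlap is not reported here, so a lack of overlap alone is not evidence of a difference. The libraries held the RNA of mixed cells, so fewer cells of a type and less RNA per cell cannot be told apart. The microglial markers Itgam, Aif1, Cx3cr1, Csf1r, P2ry12 and Tmem119 were all present, with a summed signal (log2 of the summed linear signals) of 13.9 to 14.8 in the 28 libraries.

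Transcripts of the cycle enzymes moved modestly and mostly upward in rTg4510 microglia. Of the 9 genes, 1 was called up-regulated at 2 months, 4 at 4 months, 4 at 6 months and 3 at 8 months. Down-regulation was called for 0 genes at 2 months and for 1 gene, Idh2, at each later age. Over all genes of the table, 4.76% were called up- and 1.27% down-regulated at 2 months, 14.1% and 9.1% at 4 months, 19.1% and 14.9% at 6 months, and 16% and 9.78% at 8 months. These shares of all genes also stand beside the counts of the gene lists below. None of the 9 was a DEG at any age, while 1.98%, 13.8%, 19.8% and 15.9% of all genes were at 2, 4, 6 and 8 months. The median fold change of the 9 genes was 0.03, 0.16, 0.35 and 0.30 at the 4 ages, and that of all genes lay between -0.04 and 0.01.

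**Figure D1:**
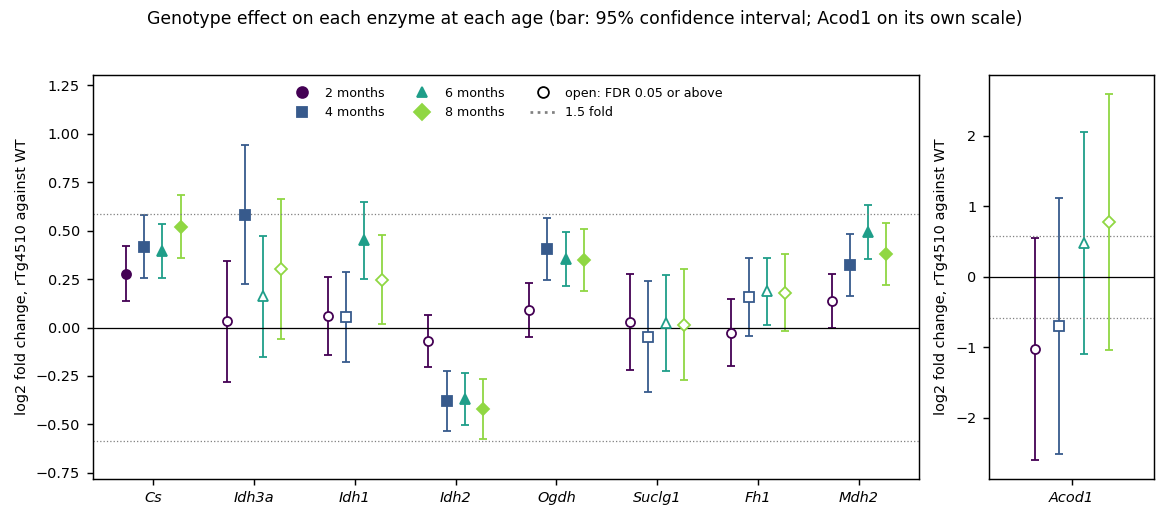
Log2 fold change of rTg4510 against WT (y axis) for the 8 enzymes and, on a scale of its own, Acod1, at 2, 4, 6 and 8 months (symbols), with 95% confidence intervals as bars. Filled symbols have an FDR under 0.05 and dotted lines mark 1.5 fold. Cs lies above 0 at all 4 ages, Idh2 below 0 from 4 months on, and the intervals of Acod1 span 0 at every age.

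Citrate synthase condenses acetyl-CoA with oxaloacetate and opens the cycle. Its gene, Cs (GRCm38.p6, chr10:128337727-128362482), was the only one of the 9 called at all 4 ages. At 2 months, its log2 signal was 6.64, 6.88, 6.80 and 6.77 in WT and 7.15, 6.98, 7.04 and 7.03 in rTg4510 libraries. At 4 months, it was 6.87, 6.98 and 6.79 in WT and 7.19, 7.40 and 7.30 in rTg4510 libraries. Every rTg4510 library lay above every WT library of its age at these ages, and this was also so at the later ones. At 6 months, the signal was 7.06, 7.01, 6.87 and 6.91 in WT and 7.25, 7.35, 7.40 and 7.42 in rTg4510 libraries. At 8 months, it was 6.69, 6.74 and 7.002 in WT and 7.32, 7.36 and 7.31 in rTg4510 libraries. From 4 months on, the lowest rTg4510 library (7.19) lay above the highest WT library of those ages (7.06).

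The log2 fold change of Cs was 0.28 (SE 0.0676, FDR 0.0137) at 2 months, 0.42 (SE 0.0781, FDR 0.00038) at 4 months, 0.39 (SE 0.0676, FDR 9.18e-05) at 6 months and 0.52 (SE 0.0781, FDR 2.51e-05) at 8 months, or 1.21 to 1.43 fold. The call at 2 months rested on single libraries: without rTg4510 replicate 1 the fold change was 0.24 (FDR 0.0606) and without WT replicate 1 it was 0.23 (FDR 0.0539). In a fit of only the genotypes of an age, the calls of Cs at 2 and 4 months were lost (FDR 0.087 and 0.0545). With the replicate number, which both genotypes share, as a block, the call of Cs at 2 months was lost too (FDR 0.0739). Within rTg4510, Cs was 0.25 higher at 4 than at 2 months (FDR 0.026) and 0.28 higher at 8 than at 2 months (FDR 0.00788). In WT the same differences were 0.11 (FDR 0.683) and 0.04 (FDR 0.823). The call at 4 against 2 months in rTg4510 was lost without rTg4510 replicate 2 or 4 of 2 months (FDR 0.0734 and 0.0571) and without rTg4510 replicate 2 or 4 of 4 months (FDR 0.144 and 0.0739). A change of the genotype effect with age was not detected for Cs, with a difference of 0.24 between 8 and 2 months (95% confidence interval 0.03 to 0.46, FDR 0.171). Without WT replicate 3 of 8 months this difference was 0.34 and passed (FDR 0.0336).

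**Figure D2:**
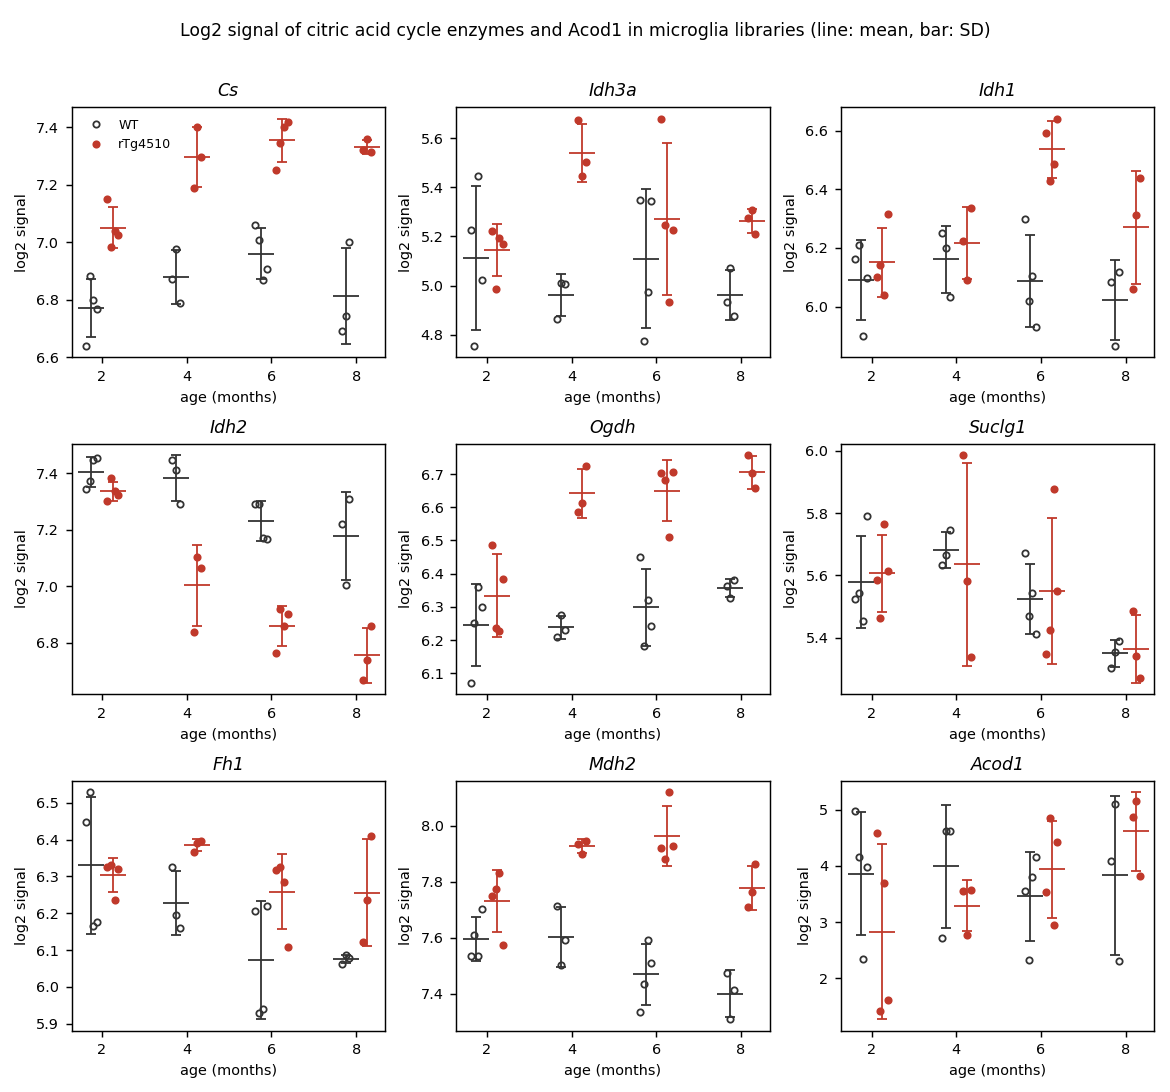
Log2 signal (y axis) of each gene in each of the 28 libraries against age in months (x axis), with WT as open and rTg4510 as filled circles. Lines are group means and bars SD (n = 3 or 4 libraries), and y axes differ between panels. The genotypes separate at all ages for Cs and from 4 months on for Idh2, Ogdh and Mdh2, and overlap at all ages for Suclg1 and Acod1.

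Isocitrate is oxidised to 2-oxoglutarate by 3 kinds of isocitrate dehydrogenase, and their genes did not move together. Idh2 (chr7:80094845-80118608) encodes the mitochondrial NADP-dependent enzyme, a source of mitochondrial NADPH. It was the only one of the 9 genes called down-regulated at any age. At 2 months, the log2 signal of Idh2 was 7.35, 7.37, 7.45 and 7.45 in WT and 7.30, 7.38, 7.34 and 7.32 in rTg4510 libraries, and the groups overlapped. At 4 months, it was 7.45, 7.41 and 7.29 in WT and 6.84, 7.11 and 7.07 in rTg4510 libraries. At 6 months, it was 7.29, 7.29, 7.17 and 7.17 in WT and 6.76, 6.92, 6.86 and 6.90 in rTg4510 libraries. At both ages all rTg4510 libraries were lower than all WT libraries. At 8 months, the signal of Idh2 was 7.22, 7.004 and 7.31 in WT and 6.67, 6.74 and 6.86 in rTg4510 libraries, again without overlap.

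The log2 fold change of Idh2 was -0.07 at 2 months (FDR 0.698), -0.38 (SE 0.0741, FDR 0.000566) at 4 months, -0.37 (SE 0.0642, FDR 0.000102) at 6 months and -0.42 (SE 0.0741, FDR 0.000158) at 8 months, which is 1.301, 1.29 and 1.34 fold lower at the 3 later ages. The signal was already 0.23 lower in WT at 8 than at 2 months, which did not pass the test (FDR 0.07), and it was 0.58 lower in rTg4510 (FDR 2.82e-06). In rTg4510 it was 0.33 lower at 4 than at 2 months (FDR 0.00216), and with all 32 libraries the difference was -0.148 (FDR 0.524). The call of the genotype effect at 4 months rests on leaving out the excluded libraries: with all 32, the fold change at 4 months was -0.06 (FDR 0.797), since the excluded rTg4510 library stood at 7.74 and the excluded WT library at 6.84, and at 6 months it was -0.37 with an FDR of 0.0616. In a fit of only the genotypes of an age, the calls at 4 and 8 months were lost (FDR 0.0905 and 0.0878).

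Idh1 (chr1:65158616-65186479) encodes the cytosolic NADP-dependent enzyme. It was called up-regulated at 6 months only. Its log2 signal at 6 months was 6.30, 6.02, 6.10 and 5.93 in WT and 6.59, 6.43, 6.49 and 6.64 in rTg4510 libraries, so all rTg4510 libraries were higher, by a fold change of 0.45 (SE 0.096, FDR 0.000914). At 8 months, it was 6.09, 5.87 and 6.12 in WT and 6.06, 6.31 and 6.44 in rTg4510 libraries. The groups overlapped there, and the fold change was 0.25 (95% confidence interval 0.02 to 0.48, FDR 0.114). Without rTg4510 replicate 1 at 8 months it was 0.35 (FDR 0.0324). At 2 and 4 months, the values were 0.06 and 0.05 with FDR 0.856 and 0.78.

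Idh3a (chr9:54586511-54604662) encodes the catalytic α subunit of the NAD-dependent enzyme, the form that works in the cycle proper. It was called at 4 months only, where its log2 signal was 4.86, 5.01 and 5.01 in WT and 5.67, 5.45 and 5.51 in rTg4510 libraries. All 3 rTg4510 libraries were higher. The fold change of 0.58 (SE 0.172, FDR 0.0172), or 1.496 fold, was the largest among the 8 enzymes and just under the threshold of a DEG. It lost its call without rTg4510 replicate 1 (0.52, FDR 0.068) or without WT replicate 1 (0.53, FDR 0.0626). At 6 months, the WT libraries reached from 4.77 to 5.35 and the rTg4510 libraries from 4.93 to 5.68, and the fold change was 0.16 (95% confidence interval -0.15 to 0.47). At 8 months, the groups did not overlap, with 4.88 to 5.07 in WT and 5.21 to 5.31 in rTg4510, but a fold change of 0.30 did not pass the test (95% confidence interval -0.06 to 0.66, FDR 0.223).

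The 2-oxoglutarate dehydrogenase complex makes succinyl-CoA, and Ogdh (chr11:6291597-6359094) encodes its first enzyme. At 2 months, the log2 signal of Ogdh was 6.07, 6.25, 6.36 and 6.30 in WT and 6.49, 6.24, 6.23 and 6.38 in rTg4510 libraries. The groups overlapped, and the fold change was 0.09 (FDR 0.596). At 4 months, the signal was 6.21, 6.28 and 6.23 in WT and 6.59, 6.61 and 6.73 in rTg4510 libraries. At 6 months, it was 6.45, 6.18, 6.32 and 6.24 in WT and 6.70, 6.68, 6.51 and 6.71 in rTg4510 libraries. At 8 months, it was 6.36, 6.33 and 6.38 in WT and 6.76, 6.70 and 6.66 in rTg4510 libraries. All rTg4510 libraries were above all WT libraries at these 3 ages. The fold changes were 0.40 (SE 0.0771, FDR 0.000448) at 4 months, 0.35 (SE 0.0668, FDR 0.000279) at 6 months and 0.35 (SE 0.0771, FDR 0.00161) at 8 months. With all 32 libraries, the value at 4 months was 0.23 with an FDR of 0.128, and the excluded rTg4510 library stood at 5.95.

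Ogdh also differed with age within rTg4510, being 0.31 higher at 4 than at 2 months (FDR 0.00521) and 0.37 higher at 8 than at 2 months (FDR 0.000653). With all 32 libraries, the first of these was 0.136 (FDR 0.438). In WT these differences were -0.01 (FDR 0.989) and 0.11 (FDR 0.428).

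Suclg1 and Fh1 were called at no age. Whether their effects differed from those of the genes above was not tested. Suclg1 (chr6:73248505-73276907) encodes the α subunit of succinyl-CoA ligase, which both forms of that enzyme share. Its log2 signal ranged from 5.30 to 5.79 over 14 WT libraries and from 5.27 to 5.99 over 14 rTg4510 libraries. The fold changes lay between -0.05 and 0.03, and their 95% confidence intervals were -0.22 to 0.28, -0.33 to 0.24, -0.22 to 0.27 and -0.27 to 0.30 at 2, 4, 6 and 8 months, so a change above 1.5 fold lay outside each interval. Fh1 (chr1:175601378-175625635) encodes fumarase, which hydrates fumarate to malate. Its fold changes were -0.03, 0.16, 0.19 and 0.18 with 95% confidence intervals of -0.20 to 0.15, -0.04 to 0.36, 0.01 to 0.36 and -0.02 to 0.38.

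At 8 months, the 3 WT libraries of Fh1 (6.06, 6.09 and 6.08) lay below the 3 rTg4510 libraries (6.12, 6.24 and 6.41), with an FDR of 0.191. Its groups did not overlap at 4 months either, with 6.16 to 6.33 in WT and 6.37 to 6.40 in rTg4510 libraries (FDR 0.266). At 6 months, the FDR of Fh1 was 0.093. It became 0.0463 without rTg4510 replicate 4 and 0.0478 without WT replicate 4.

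Mdh2 (chr5:135778649-135790386) encodes the mitochondrial malate dehydrogenase, which regenerates oxaloacetate. At 2 months, its log2 signal was 7.54, 7.61, 7.54 and 7.70 in WT and 7.75, 7.77, 7.83 and 7.58 in rTg4510 libraries, with an overlap and a fold change of 0.14 (FDR 0.31). At 4 months, it was 7.72, 7.503 and 7.59 in WT and 7.94, 7.90 and 7.95 in rTg4510 libraries. At 6 months, it was 7.34, 7.44, 7.59 and 7.51 in WT and 7.92, 7.88, 8.12 and 7.93 in rTg4510 libraries. From 4 months on, the genotypes did not overlap at any age. At 8 months, the signal was 7.48, 7.31 and 7.41 in WT and 7.71, 7.77 and 7.87 in rTg4510 libraries. The fold change was 0.32 (SE 0.0767, FDR 0.00333) at 4 months, 0.49 (SE 0.0665, FDR 4.51e-06) at 6 months and 0.38 (SE 0.0767, FDR 0.000681) at 8 months. In a fit of only the genotypes of an age, the FDR at 4 months was 0.0541. Within rTg4510, Mdh2 was not called between ages, with 0.20 at 4 against 2 months (FDR 0.0741, but 0.358 with FDR 0.0248 over all 32 libraries and 0.228 with FDR 0.049 without rTg4510 replicate 3 of 2 months) and 0.05 at 8 against 2 months (FDR 0.717), and in WT it was lower by 0.20 at 8 than at 2 months without passing the test (difference -0.20, FDR 0.13).

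Whether the genotype effect itself changed with age was tested against the effect at 2 months. Of the 9 genes, 0 passed for 4 against 2 months, 2 for 6 against 2 months and 1 for 8 against 2 months, while 7.33%, 13.4% and 9.76% of all genes did. Comparisons against 2 months share its libraries. The effect on Mdh2 was 0.36 higher at 6 months (SE 0.094, FDR 0.0132). The effect on Idh2 was more negative by -0.30 at 6 months (SE 0.0907, FDR 0.0294) and by -0.35 at 8 months (SE 0.098, FDR 0.0239). Same-numbered libraries of the 2 genotypes deviated together at 6 and 8 months, and with the replicate number as a block the FDR of Idh2 became 0.0603 and 0.0559, and that of Mdh2 0.0293. With all 32 libraries none of these passed (FDR 0.56 and 0.365 for Idh2 and 0.211 for Mdh2), and with a moderated variance Idh2 at 6 months had an FDR of 0.0534. For Idh2 at 4 months (-0.31, FDR 0.0577), Ogdh at 4 months (0.32, FDR 0.0648) and at 6 months (0.26, FDR 0.0727), and Idh1 at 6 months (0.39, FDR 0.0641), the change of the effect did not pass. In the same order, these passed in 3, 3, 4 and 4 of 28 fits that left out 1 library. Leaving out 1 library lifted the FDR of Idh2 to between 0.0524 and 0.0632 at 6 months in 6 fits (without rTg4510 replicate 2, WT replicate 1 or WT replicate 2 of 2 months, or rTg4510 replicate 1, WT replicate 1 or WT replicate 2 of 6 months) and to between 0.059 and 0.0853 at 8 months in 4 fits (without rTg4510 replicate 1 or 2, or WT replicate 1 or 3, of 8 months).

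Between ages within a genotype, 0 of the 9 genes were called in WT at 4 against 2 months (0.0861% of all genes) and 0 at 8 against 2 months (4.21%). In rTg4510 microglia, 3 were called at 4 against 2 months (15.2% of all genes) and 3 at 8 against 2 months (21.7%). These were Cs and Ogdh, which were higher at the later age, and Idh2, which was lower, in both comparisons.

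The opposite movement of the enzymes can be read within a library, where a shift common to all genes cancels. Since signal differences between genes also hold gene length, only their change between libraries is informative. Cs minus Idh2 was -0.63 ± 0.10 (SD, n = 4) in WT and -0.29 ± 0.10 (SD, n = 4) in rTg4510 libraries at 2 months. It was -0.50 ± 0.07 (SD, n = 3) against 0.29 ± 0.06 (SD, n = 3) at 4 months, -0.27 ± 0.03 (SD, n = 4) against 0.49 ± 0.05 (SD, n = 4) at 6 months, and -0.37 ± 0.14 (SD, n = 3) against 0.57 ± 0.11 (SD, n = 3) at 8 months. From 4 months on, this difference was 0.23 to 0.65 in the rTg4510 libraries kept and -0.57 to -0.23 in the WT libraries kept. The libraries left out at 4 months did not follow this, with Cs at 7.33 and Idh2 at 7.74 in rTg4510 and 6.86 and 6.84 in WT. Those left out at 8 months had 7.26 and 6.37 in rTg4510 and 6.90 and 7.06 in WT. For Idh1 minus Idh2, the cytosolic against the mitochondrial NADP-dependent enzyme, the WT means stayed between -1.31 and -1.14 and the rTg4510 means were -1.19, -0.79, -0.32 and -0.49 at the 4 ages. These differences use the same values as the comparisons above and were not tested again.

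**Figure D3:**
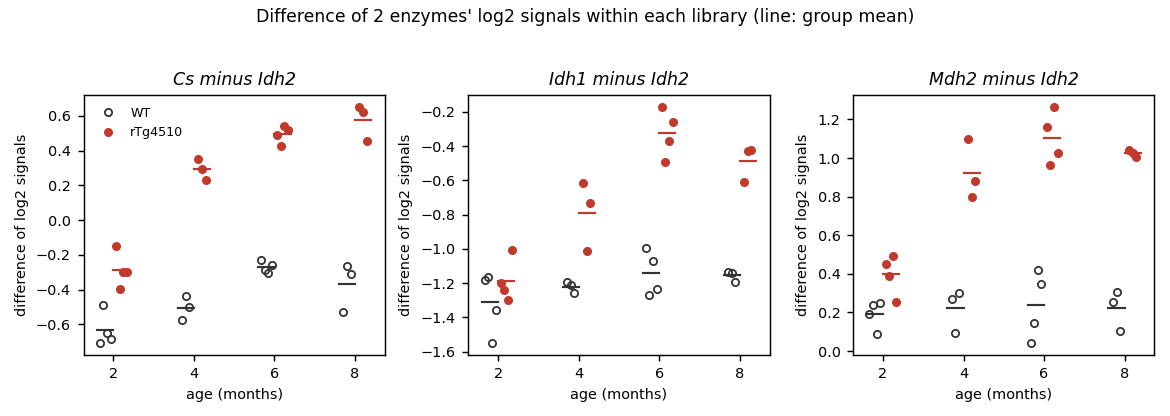
Difference between the log2 signals of 2 enzymes in the same library (y axis) against age in months (x axis), for Cs, Idh1 and Mdh2, each minus Idh2, with WT as open and rTg4510 as filled circles and lines at group means. For Cs minus Idh2 the rTg4510 libraries lie between 0.23 and 0.65 from 4 months on and the WT libraries between -0.57 and -0.23.

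Acod1 (chr14:103047012-103056573), whose enzyme makes itaconate from cis-aconitate, had low signals that scattered widely in both genotypes. At 2 months, its log2 signal was 4.97, 4.17, 2.35 and 3.97 in WT and 4.59, 1.43, 3.70 and 1.62 in rTg4510 libraries. At 4 months, it was 2.72, 4.62 and 4.63 in WT and 3.55, 2.77 and 3.56 in rTg4510 libraries. The genotypes overlapped at these ages and at the later ones. At 6 months, the signal was 3.55, 2.33, 3.81 and 4.15 in WT and 3.53, 4.85, 2.95 and 4.43 in rTg4510 libraries. At 8 months, it was 4.08, 5.11 and 2.32 in WT and 4.87, 5.15 and 3.83 in rTg4510 libraries. The fold changes were -1.03 (95% confidence interval -2.60 to 0.54, FDR 0.576), -0.70 (-2.51 to 1.12, FDR 0.626), 0.48 (-1.10 to 2.05, FDR 0.663) and 0.78 (-1.04 to 2.60, FDR 0.567) at 2, 4, 6 and 8 months. These intervals hold changes of more than 1.5 fold in both directions at 4, 6 and 8 months, and toward lower signal in rTg4510 at 2 months.

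The spread of Acod1 around its group means was 1.07 (residual SD), and 98.4% of the genes of the table had a smaller one, against a median of 0.232 over all genes and 0.0907 to 0.211 for the 8 enzymes. Its mean signal was 3.70, and 10.2% of genes had a lower mean, a rank that also depends on gene length. In 2 libraries, rTg4510 replicates 2 and 4 at 2 months, Acod1 stood at the lowest value of the whole library. In 7 of 28 libraries it lay within 1.58 of that value, which would be 3 counts if the lowest value stands for a count of 0. This reading was inferred from the values. Changes of Acod1 within the intervals above could not be detected in these libraries. In rTg4510, the difference between 8 and 2 months was 1.78 (95% confidence interval 0.08 to 3.48, FDR 0.134), and it was 2.37 (FDR 0.0459) without rTg4510 replicate 1 of 2 months.

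Of 7 inflammatory genes that activated macrophages are known to express together with Acod1, 1 was called up-regulated at 2 months and 5 at each of 4, 6 and 8 months, with 0 down-regulated. Il1b, the gene of interleukin-1β, had a fold change of 0.997, 1.78, 2.41 and 2.26 at the 4 ages and was called at each (FDR 0.011 at 2 months). Tnf, the gene of tumor necrosis factor, had 1.14 at 2 months (FDR 0.0587) and was called at 1.91, 2.07 and 2.29 at 4, 6 and 8 months. Ptgs2, the gene of the inducible cyclooxygenase, was called at the same 3 ages with 1.27, 1.36 and 1.66. Il12b was called at these ages too, but all of its WT libraries lay within 1.58 of the lowest value, so its fitted fold change depends on that limit. Irf1, an interferon-responsive transcription factor, was called at 6 months (0.33) and 8 months (0.82), and Il6 at 4 months (0.82). Nos2, the gene of inducible nitric oxide synthase, had 0.17 at 8 months (95% confidence interval -1.35 to 1.69) and, like Acod1, lay near the lowest value in several libraries.

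Of 3 listed genes linked to the handling of or the response to itaconate, 0 were called at 2 months, 2 at 4 months, 2 at 6 months and 1 at 8 months, all up-regulated. Clybl, whose enzyme cleaves citramalyl-CoA in the breakdown of itaconate, had a fold change of 0.69 (SE 0.177, FDR 0.00657) at 4 months and 1.01 (SE 0.153, FDR 2.07e-05) at 6 months, and 0.40 (FDR 0.106) at 8 months. Nfe2l2 had 0.38 (FDR 0.000373), 0.62 (FDR 6.16e-08) and 0.76 (FDR 4.17e-08) at 4, 6 and 8 months. Keap1, whose product holds the Nfe2l2 protein in check, was called at no age.

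The other enzymes of the cycle were called in one direction, as far as they were called. Of 10 further genes, 0, 3, 7 and 3 were called up-regulated at 2, 4, 6 and 8 months and 0 down-regulated. Over all genes, 4.76%, 14.1%, 19.1% and 16% were up-regulated and 1.27%, 9.1%, 14.9% and 9.78% down-regulated. The absence of down-regulated genes among 10 is therefore near what all genes show. Sdhb, the iron-sulfur subunit of succinate dehydrogenase, had fold changes of 0.36, 0.57 and 0.39 at 4, 6 and 8 months (FDR 0.00631, 8.33e-06 and 0.0028). Suclg2, the GTP-forming β subunit of succinyl-CoA ligase and so the partner of Suclg1, had 0.41, 0.42 and 0.28 (FDR 0.000276, 2.14e-05 and 0.00662). Sucla2, its ATP-forming counterpart, was called at no age. Sdhc, a membrane anchor of succinate dehydrogenase, was a DEG at 4 months (0.59, FDR 0.0027). Idh3b, a partner subunit of Idh3a, was called at 6 months (0.36) and 8 months (0.24), and Idh3g, the other partner, at no age (-0.14 at 4 months, FDR 0.129).

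Together with the 8 enzymes described first, 18 genes are reported as cycle enzymes, with Idh1 counted among them although its enzyme is cytosolic. Of these, 1, 7, 11 and 6 were up-regulated and 0, 1, 1 and 1 down-regulated at 2, 4, 6 and 8 months, and the one down-regulated gene was Idh2 each time, joined at 4 months by Idh3g after quantile normalization (-0.195, FDR 0.0301) and with the replicate number as a block (-0.142, FDR 0.0239). The shares of all genes at the 4 ages were 4.76%, 14.1%, 19.1% and 16% up-regulated and 1.27%, 9.1%, 14.9% and 9.78% down-regulated. The fold changes of the 18 genes ran from -0.37 to 0.57 at 6 months.

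**Figure D4:**
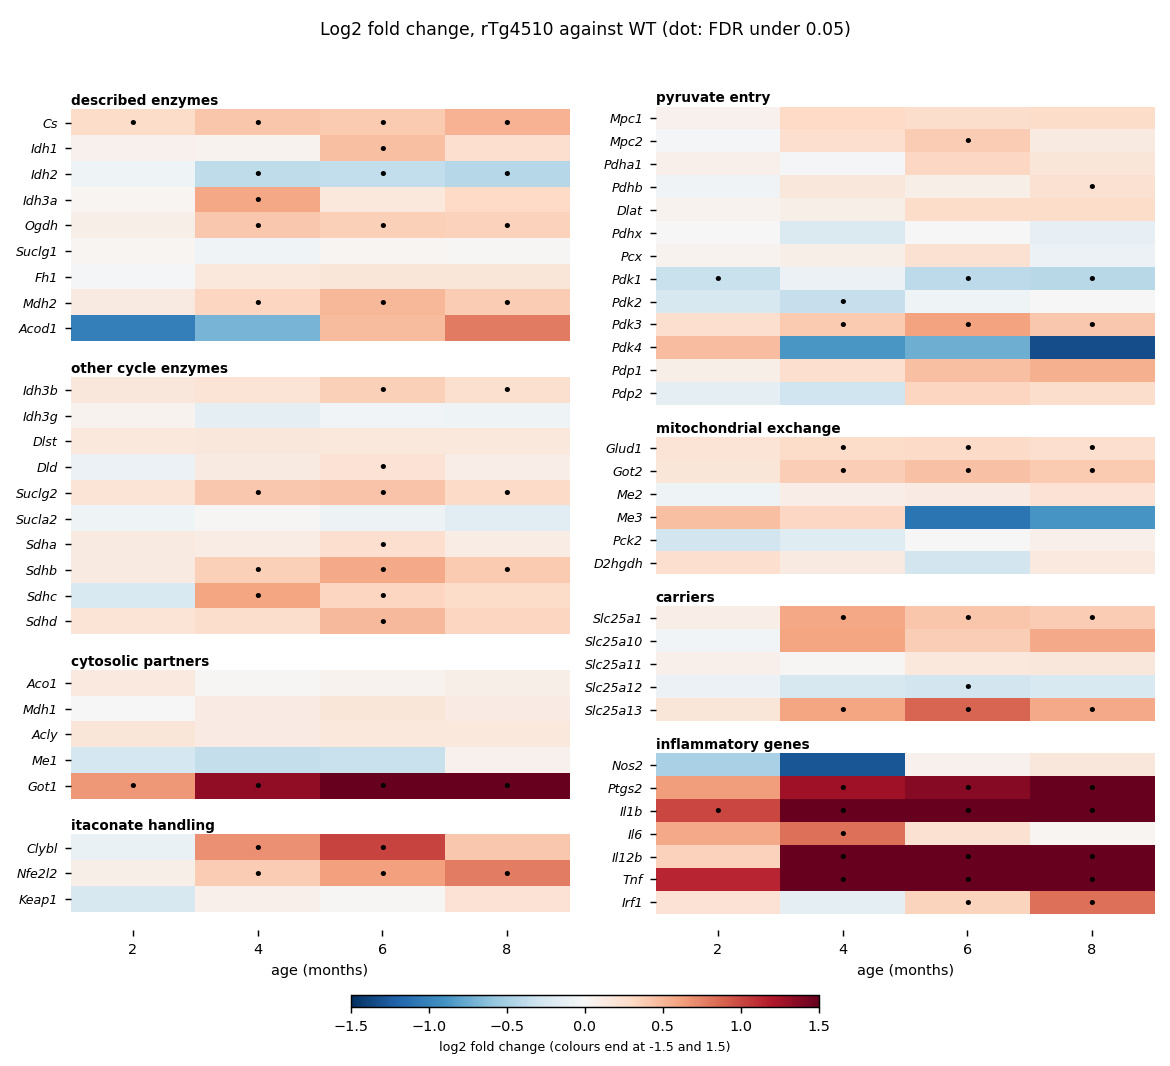
Log2 fold change of rTg4510 against WT (colour, red higher and blue lower, ending at -1.5 and 1.5) for the 9 genes and the listed genes around them (rows) at 2, 4, 6 and 8 months (columns). Dots mark an FDR under 0.05. Among the 18 cycle enzymes Idh2 is the one gene with dots on blue (Idh3g also passes at 4 months after quantile normalization or with the replicate block), and Got1 is red with dots at all 4 ages.

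Aspartate aminotransferases link the cycle to amino acids and work with malate dehydrogenase in the malate-aspartate shuttle. Got1, the cytosolic form, was called at all 4 ages, with fold changes of 0.65, 1.33, 1.58 and 1.73 (FDR 2.62e-05 at 2 months and 1.12e-11 at 8 months). It was the only one called among 5 cytosolic partners, as Aco1, Mdh1, Acly and Me1 were called at no age. Got2, the mitochondrial form, had 0.37, 0.44 and 0.39 at 4, 6 and 8 months. Glud1, glutamate dehydrogenase, had 0.27, 0.28 and 0.25, and both genes were called at these 3 ages. Of 6 genes of mitochondrial exchange of carbon, 0, 2, 2 and 2 were up-regulated at 2, 4, 6 and 8 months and 0 down-regulated.

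Among 5 mitochondrial carriers, 0, 2, 2 and 2 were up-regulated and 0, 0, 1 and 0 down-regulated. Slc25a1, the citrate carrier, had 0.58, 0.42 and 0.39 at 4, 6 and 8 months (FDR 0.00347, 0.0103 and 0.0466). The aspartate-glutamate carriers split, with Slc25a13 up-regulated at these ages (0.59, 0.87 and 0.57) and Slc25a12 down-regulated at 6 months (-0.27, FDR 0.0215). Among 13 genes of pyruvate entry, 0, 1, 2 and 2 were up-regulated and 1 was down-regulated at each age. From 4 months on, these counts were no higher than the shares of all genes (14.1%, 19.1% and 16% up-regulated, and 9.1%, 14.9% and 9.78% down-regulated). The pyruvate dehydrogenase kinases, which switch that enzyme off, also split: Pdk1 was lower at 2, 6 and 8 months (-0.34, -0.39 and -0.41) and Pdk2 at 4 months (-0.34), while Pdk3 was higher at 4, 6 and 8 months (0.39, 0.61 and 0.41). Mpc2, a subunit of the pyruvate carrier, was up-regulated at 6 months (0.38), and Pdhb, a subunit of pyruvate dehydrogenase, at 8 months (0.23).

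Across the 28 libraries, Cs and Ogdh had the highest Pearson correlation among the 8 enzymes (r = 0.854), and Idh2 and Ogdh the lowest (r = -0.819), with -0.719 for Cs and Idh2. These values describe libraries that share genotype and age, and they changed when each group's mean was taken away: 0.354 for Cs and Ogdh, 0.126 for Idh2 and Ogdh, and 0.567 for Cs and Idh2. Acod1 correlated with the 8 enzymes by -0.361 to 0.19. Genes of the whole table with the most similar signal over the 28 libraries were Psap (0.946) and Trf (0.943) for Cs, Tjp1 (0.946) and Hmga2-ps1 (0.936, a pseudogene that may share reads with another gene) for Idh2, Cadm1 (0.913) and BC005537 (0.913) for Ogdh, and Efhd2 (0.95) and Btf3 (0.941) for Mdh2. For Idh1 they were Lin9 (0.787) and St6gal1 (0.784), for Idh3a Slc43a3 (0.716) and Tmem202 (0.698), for Suclg1 Ercc1 (0.731) and Tsg101 (0.678), and for Fh1 Gm15361 (0.779) and Ube2d3 (0.752). For Acod1 the 5 most similar were Rab11fip1 (0.627), Phlpp1 (0.625), Gm13007 (0.589), Ankrd45 (0.587) and an unnamed Entrez gene (0.585). These likenesses also hold the shared differences of genotype and age. With each group's mean taken away, every value for the 8 enzymes was lower, from 0.3645 (Slc43a3) to 0.887 (Efhd2). Those for Acod1 were then 0.528 to 0.699.

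Markers of other cells moved with genotype beside these results. Of 8 neutrophil markers, 7 were called lower in rTg4510 at the ages of 6 and 8 months and 0 at the earlier ages. At 4 months, however, their summed log2 signal was already 8.28 to 9.01 in rTg4510 against 9.17 to 10.1 in WT libraries, without overlap. Their summed log2 signal was 7.49 to 8.21 in rTg4510 against 9.09 to 10.3 in WT libraries at 6 months, and 7.85 to 9.09 against 10 to 10.4 at 8 months. Of 4 monocyte markers, 0, 1, 3 and 0 were lower at the 4 ages, and of 6 markers of border macrophages, 1 at 6 months. The summed log2 signal of the monocyte markers at 4 months was 6.53 to 6.79 in rTg4510 against 7.30 to 7.69 in WT libraries. It overlapped between the genotypes at the other ages. Of 6 microglial markers, 3, 3, 4 and 4 were lower and 0, 0, 1 and 1 higher at 2, 4, 6 and 8 months. From 4 months on, their summed log2 signal was 13.9 to 14.3 in rTg4510 and 14.3 to 14.8 in WT libraries. Of the lists of 5 astrocyte, 5 oligodendrocyte, 5 endothelial, 2 neuronal and 3 B and T cell markers, 0 to 2 were lower and 0 to 1 higher at an age. The part of any of these in the differences of the 9 genes was not tested.

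In the annotation, Cs overlaps Gm51822 and Gm23182, Ogdh overlaps Gm46270 and Gm45933, Suclg1 overlaps Gm38834 and Acod1 overlaps Gm41235. None of these has a row in the table and the strand setting of the counting is not given in the sources used here, so reads of such pairs cannot be told apart.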

How the data were processed

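RNA of microglia isolated with CD11b beads was sequenced as 32 libraries. The unit of the deposited table is the log2 signal of a gene. For it the authors added up the exon reads of all runs of a library, removed exons that had under 10 counts in over 80% of the samples, summarised exons to genes by robust linear modelling and set all libraries to one median (5.63). The build was GRCm38 per the submitters' processing notes, and the aligner is not given in the sources used here. Groups came from the labels, and the 4 libraries that the study excluded were left out.

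Entrez numbers were matched to symbols with RefSeq GRCm38.p6 (95.9% of 18588 genes). limma 3.58.1 (in R 4.3.3, with data.table, version 1.17.8) was used to fit 8 group means to each gene, with unmoderated variances (20 residual degrees of freedom) and FDR within each contrast. The fit was tested on simulated data. The study's methods also name a factorial model on 28 samples with an FDR per contrast. No gene was filtered out, and 0 columns of values were unused. Each group held 3 or 4 pools of animals. The p-values set a difference against the spread between pools within a group, taken over all 8 groups together. Age cannot be told apart from the date of preparation, which no label gives. The members and gene lists were chosen with earlier results of these data known. Of a list, genes called at 1 or more ages are named first. For Acod1 the 5, and for every other member the 2, most correlated genes are named. Of the listed genes and markers, Ogdhl, Sucnr1, Oxgr1, Cd3d, Gad1, Nefl, Rbfox3 and Slc17a7 matched no row and were not analysed here. Some other listed genes are not reported here and are left out of the counts of their lists. Python 3.11.15 with pandas 2.3.3, numpy 2.4.6 and matplotlib 3.10.9 handled promoters and figures.

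Labels give both genotypes the same replicate numbers. After each group's mean was removed, same-numbered libraries correlated across genes by 0.131 to 0.153 at 6 months and 0.15 to 0.291 at 8 months, and other pairs by -0.127 to 0.0913 and -0.259 to -0.0281. On these values the numbers pair the libraries at both ages. At 2 months, same-numbered libraries correlated by 0.0649 to 0.167 and other pairs by -0.194 to 0.0816, so pairing there is possible but not clear. At 4 months, the ranges were -0.0999 to 0.124 and -0.0709 to 0.154, which shows no pairing. The fit reported had no block, and the alternative put the block at every age.

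The alternatives were a moderated variance, all 32 libraries, a fit of the 2 genotypes of an age alone, quantile normalization, a filter on low signals, a replicate block, leaving out each library and the DEG rule.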

Additional observations from a re-analysis of the deposited data

Results flagged for a closer look

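In 36 groups of 4 libraries, 1 library stood far from the other 3 by Dixon's test in 2 cases, and chance alone flags about 1 in 20 groups. Ogdh was 6.51 in rTg4510 replicate 3 at 6 months, below the other 3 libraries of its group (6.68 to 6.71) and above all WT libraries of that age. Fh1 was 6.24 in rTg4510 replicate 3 at 2 months, below the other 3 (6.32 to 6.33).

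The genotype effect differed between ages by the test of the difference itself in 3 cases. For Idh2 it was -0.30 at 6 against 2 months and -0.35 at 8 against 2 months, and for Mdh2 it was 0.36 at 6 against 2 months. Both cases of Idh2 did not pass with the replicate block (FDR 0.0603 and 0.0559), and none of the 3 passed with all 32 libraries. At 6 months all 4 rTg4510 libraries lay below the WT libraries for Idh2 and above them for Mdh2.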

How the results depend on the processing

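Quantile normalization and a filter on low signals, which removed Acod1, moved none of the counts of called genes, among the 9 or in the whole table, by more than 1.5 times and turned no reported direction, and in both the median of all genes moved by less than 0.1. Under the DEG rule, 0 of the 9 genes were called in either direction at any age. With only the 2 genotypes of an age in the fit, 0 genes were called up-regulated at 2 months and 2 at 4 months, 0 were called down-regulated at 4 and 8 months, and 554, 2215 and 2490 genes of the whole table were called at 2, 4 and 8 months. Such a fit has fewer libraries to estimate the spread. With all 32 libraries, 0 genes were called down-regulated at 4 and 6 months, 0 changed in effect at 6 or 8 against 2 months, and 314 and 3718 of all genes were called at 2 and 6 months. There, Idh1 at 4 months (-0.0198), Suclg1 at 8 months (-0.00075) and the change in the effect on Idh2 at 4 against 2 months (0.0086) turned direction. With a moderated variance, 1 gene (Mdh2) was called for 6 against 2 months. The causes were not tested.

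With the replicate block, 0 genes were called up-regulated at 2 months (Cs, FDR 0.0739), 1 for 6 against 2 months and 0 for 8 against 2 months. It changed no other call of the 9 genes. Over these alternatives, 0 to 2, 3 to 9, 6 to 12 and 4 to 8 of the 18 cycle enzymes were up-regulated at 2, 4, 6 and 8 months and 0 to 2 down-regulated, and the fewest were up-regulated at 2 and 4 months with only the 2 genotypes of the age and at 6 and 8 months with all 32 libraries.

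Leaving out 1 library at a time gave 0 to 1 genes up-regulated at 2 months, 0 to 1 changed in effect at 4, 1 to 3 at 6 and 0 to 2 at 8 against 2 months, and 0 to 1 between 8 and 2 months in WT. It turned the direction of these values, none of them called: Idh1 (-0.0056 to 0.10), Idh3a (-0.0873 to 0.14), Suclg1 (-0.0234 to 0.10) and Fh1 (-0.0811 to 0.0404) at 2 months, Idh1 (-0.01 to 0.12) and Suclg1 (-0.22 to 0.10) at 4 months, Suclg1 at 6 months (-0.0838 to 0.0933) and 8 months (-0.0448 to 0.0623), Ogdh at 4 against 2 months in WT (-0.0655 to 0.0303), Cs at 8 against 2 months in WT (-0.0559 to 0.10) and Mdh2 at 8 against 2 months in rTg4510 (-0.0057 to 0.082).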
